A study of Homo sapiens with 6 samples.

Results

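Small nucleolar RNA (snoRNA) host long non-coding RNAs (lncRNAs) are spliced transcripts whose introns hold snoRNAs. They were described here in OVCAR8, an established line of human ovarian cancer cells, with pladienolide B or its solvent. The members were every gene of the deposited table named SNHG with a number, together with GAS5, DANCR, ZFAS1 and EPB41L4A-AS1, which gave 32 of the 38637 genes. Of these, 28 had enough reads to be tested and 4 (SNHG22, SNHG25, SNHG27 and SNHG31) did not. The table labels the 32 genes by symbol, and all 32 are annotated in GENCODE release 44.

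A snoRNA is released when its host transcript has been spliced and the intron is trimmed to the small RNA. Box C/D snoRNAs guide 2'-O-methylation of ribosomal RNA and box H/ACA snoRNAs guide its pseudouridylation, while Cajal body RNAs (scaRNAs) guide the same modifications on the RNAs of the spliceosome. The spliced host exons often carry no conserved reading frame, several host RNAs are short-lived through nonsense-mediated decay, and some begin with the terminal oligopyrimidine (TOP) tract known from ribosomal protein mRNAs. Pladienolide B binds SF3B1, a subunit of the U2 snRNP that recognises the branch point of introns, so that host lncRNAs and their snoRNAs both depend on the step it inhibits.

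The 2 groups of OVCAR8 cells received DMSO or 2 nM pladienolide B, and RNA was taken after 72 h from 3 samples of each. Polyadenylated RNA was sequenced, so that a mature snoRNA, which has no poly(A) tail, was not the target of the libraries. The samples held from 22621338 to 26130882 reads on genes. No label says that the samples came from separate cultures, so the p-values measure the spread between these samples, which may be technical. DMSO replicate 2 stood furthest from the others of its group: its counts differed from theirs by a chi-square per degree of freedom of 7.32 and 7.22, against 2.00 between DMSO replicates 1 and 3 and 3.15 to 4.80 within the pladienolide B group. Of 9 markers of ovarian cancer epithelium, 6 (PAX8, KRT7, KRT8, KRT18, EPCAM and MSLN) had at least 100 adjusted reads in every sample, whereas WT1, MUC16 and CDH1 lay between 10.1 and 41.6. Of 7 markers of leukocytes, endothelium or hepatocytes, 5 stayed below 10 adjusted reads in every sample, and PECAM1 and VWF reached 42.1 and 45.1.

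The starts of 5 members whose level changed and whose annotated first base opens a pyrimidine tract are shown here, because host RNAs are known for such starts and because these members went both ways. Each line gives 30 bases of the transcript strand in GRCh38.p14, from RefSeq, with the annotated start at the sixth base and the unbroken tract of C and T from that base in capitals.
SNHG32: tagttCTTTTTgcgaagtgggctcgtgggt
SNHG5: tcggtCTTTTacgtcggccttcgcgagcgt
SNHG18: gccgcCTCCTCCTCCTCCTCCTCCCCgccg
ZFAS1: tcgttCTTTCgcgtctgcggtgcccggagt
SNHG12: agcgcCCTTTCTCCCCgccgcattcccggt
These are chr6:31834911-31834940 on the plus strand, chr6:85678709-85678738 on the minus strand, chr5:9546195-9546224 on the plus strand, chr20:49278637-49278666 on the plus strand and chr1:28581849-28581878 on the minus strand. A TOP-like start was defined as a C at the annotated first base followed by at least 4 more of C or T, read on the transcript strand only. It was present in 7 of the 25 tested members with a promoter sequence (28.0%), in 4.07% of 35116 RefSeq promoters and in 49 of 86 cytosolic ribosomal protein genes (57.0%). SNHG32, SNHG5 and SNHG18 were lower with pladienolide B, ZFAS1 and SNHG12 were higher, and the other 2 with such a start, SNHG4 and SNHG19, did not pass the test. The 7 members with the start had a median log2 fold change of -0.11 and the 18 without it one of -0.01. The RefSeq start lies away from the end of the gene in the deposited table for 5 members, by 49 bases for SNHG17, 163 for GAS5, 349 for SNHG4, 464 for ZFAS1 and 1110 for SNHG12, so for these the letters belong to the RefSeq start alone. GAS5, known for a TOP start, has none at the RefSeq start used here.

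Pladienolide B moved the tested host lncRNAs both up and down, and none by 2-fold. Of 28 members, 9 rose and 9 fell at an adjusted p below 0.05 (limma on log2 values, Benjamini-Hochberg adjustment over 16178 genes), and 10 did not pass. The risers were SNHG10, EPB41L4A-AS1, SNHG15, SNHG1, SNHG12, SNHG17, SNHG16, ZFAS1 and GAS5, with 1.09-fold to 1.38-fold more RNA. The fallers were SNHG26, SNHG14, SNHG18, SNHG32, DANCR, SNHG3, SNHG29, SNHG5 and SNHG8, at 0.535 to 0.870 times their level in DMSO. The share of members called was 64.3%, beside 47.6% of all genes tested. It was 32.1% in each direction, beside 22.4% of all genes higher and 25.2% lower. The 3 values of the groups did not overlap for 20 of the 28 members (71.4%), beside 55.3% of all genes. The median log2 fold change of the members was -0.07 and that of all genes 0.00, and the median size of the change was 0.27 and 0.23. In bulk RNA, a change in how many cells express a gene and a change in RNA per cell cannot be told apart.

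**Figure D1:**
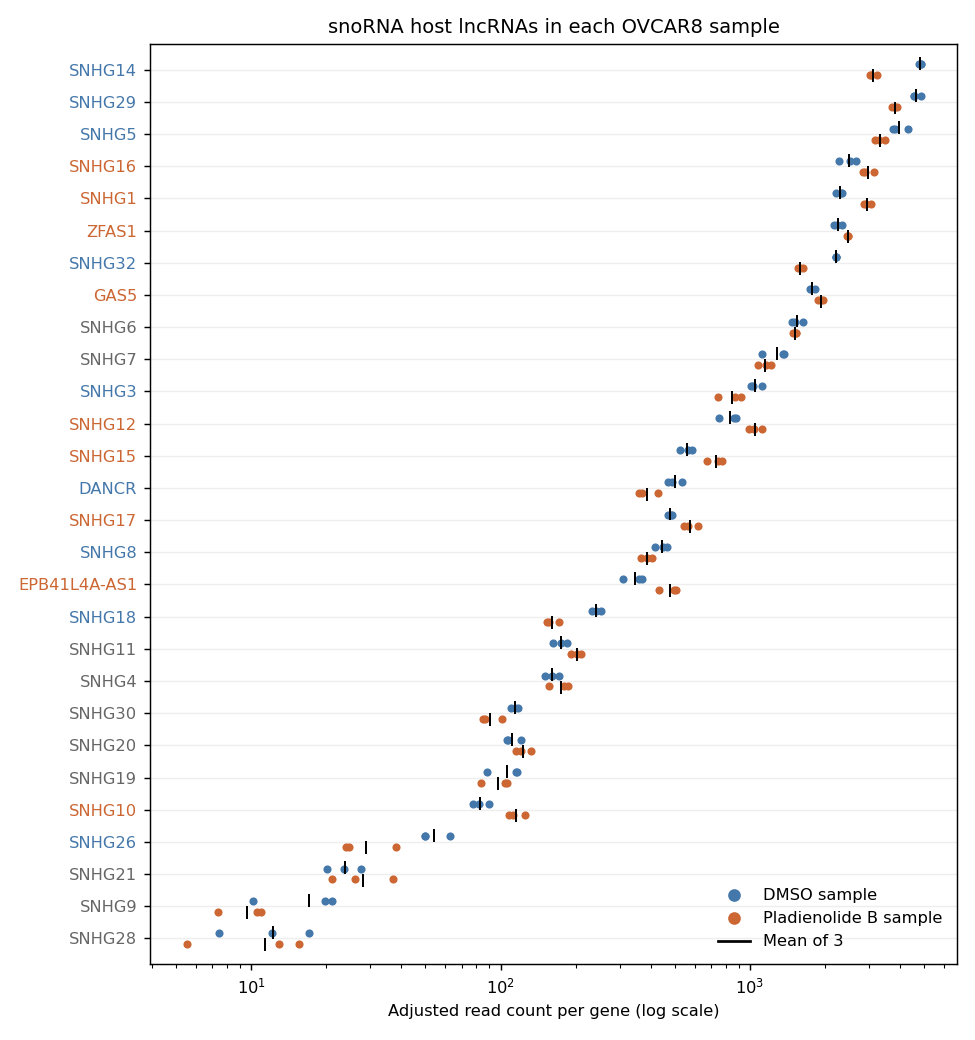
Adjusted read counts (log axis) of the 28 tested snoRNA host lncRNAs in each of the 3 DMSO samples (blue) and 3 pladienolide B samples (orange), with black ticks at the group means. Gene names are orange where the member rose, blue where it fell and grey where it did not pass the test. The shifts are small beside the range of levels between members. The points of the groups separate for 20 of the 28 members (71.4%), beside 55.3% of all genes tested.

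Among the members that rose, EPB41L4A-AS1, a host of the box H/ACA RNA SNORA13 at chr5:112160526-112162501, was 1 of the 2 with the largest rise. Its adjusted read counts, which are the deposited counts brought to a common library size, were 370.3, 309.5 and 358 in DMSO and 432, 495 and 505 with pladienolide B. Every treated sample lay above every control, and the log2 fold change was 0.46 ± 0.09 (SE; limma adjusted p = 0.00048). EPB41L4A, the protein-coding gene on the opposite strand that overlaps it, had means of 418 and 435, a log2 fold change of 0.06 (limma adjusted p = 0.60). SNHG10, at chr14:95532912-95534872 and the host of the Cajal body RNA SCARNA13, had the same fold change from far fewer reads. It stood at 89.6, 77.6 and 82.2 in DMSO and at 125, 112 and 108 with the drug, again without overlap, with a log2 fold change of 0.46 ± 0.15 (limma adjusted p = 0.015). Without pladienolide B replicate 1 it was 0.40 with a limma adjusted p of 0.069, so the call for SNHG10 was lost. The treated values left, 112 and 108, still lay above every control, and leaving out a sample also lowers the power of the test.

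SNHG15 (chr7:44983023-44986696), a short-lived lncRNA that hosts SNORA9, was at 524, 586 and 562 in DMSO and at 771, 747 and 673 with pladienolide B. This was a rise to 131% of the DMSO mean with no overlap, a log2 fold change of 0.39 ± 0.07 (limma adjusted p = 0.00030). SNHG1 (chr11:62851978-62855885) is the classic host of 8 box C/D snoRNAs, whose exons were long regarded as a by-product of snoRNA production. Its 3 DMSO samples held 2219.6, 2346 and 2312 adjusted reads and its treated samples 3043, 2924 and 2866. The lowest treated sample lay well above the highest control, and with a log2 fold change of 0.36 ± 0.05 SNHG1 had the smallest p among the risers (limma adjusted p = 5.7e-06). SNHG12 (chr1:28578538-28582983), which holds both box C/D and box H/ACA RNAs, rose from 748, 879 and 860.4 to 1041, 1119 and 993, a log2 fold change of 0.34 ± 0.07 (limma adjusted p = 0.00062). Its neighbour on the opposite strand, TRNAU1AP, a gene of selenocysteine tRNA biology, had means of 923 and 853 and did not pass (limma adjusted p = 0.16). SNHG17 (chr20:38420588-38435377) holds 4 copies of the SNORA71 family. It was at 484, 487 and 468 in DMSO and at 619, 566 and 544 with pladienolide B, a log2 fold change of 0.26 ± 0.07 (limma adjusted p = 0.0068).

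The remaining risers changed by less than 1.2-fold and had many reads. SNHG16, host of the SNORD1 family, had 2270.2 to 2671 adjusted reads in DMSO and 2839 to 3149 with the drug, a log2 fold change of 0.25. ZFAS1 (chr20:49278178-49289260), which hosts the SNORD12 family and starts next to ZNFX1, was at 2233, 2335 and 2180.3 in DMSO and at 2476, 2481 and 2442 with pladienolide B. GAS5 (chr1:173863899-173868882) is the growth arrest-specific transcript, known for its accumulation in arrested cells, its TOP start and its decay by the nonsense-mediated pathway, and in the table it holds 11 small RNAs. It had 1758, 1815 and 1736 adjusted reads in DMSO and 1969, 1876 and 1919 with the drug. The groups of ZFAS1 and GAS5 did not overlap, but the rises were small: 0.13 ± 0.05 on the log2 scale for ZFAS1 (limma adjusted p = 0.022) and 0.12 ± 0.05 for GAS5 (limma adjusted p = 0.048). The call for ZFAS1 was lost without DMSO replicate 1 or 3 or pladienolide B replicate 1 or 2, with log2 fold changes from 0.11 to 0.13. The call for GAS5 was lost without DMSO replicate 1 or 3 or without any 1 of the 3 pladienolide B samples, with values from 0.10 to 0.14. ZBTB37, which overlaps GAS5 on the opposite strand, was lower (means of 121 and 94.4, log2 fold change -0.36, limma adjusted p = 0.048), and GAS5-AS1 had means of only 15.7 and 12.8.

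SNHG14 had the smallest p of all members. This transcript of the imprinted Prader-Willi region (chr15:24823608-25419462) carries the SNORD115 and SNORD116 clusters, here 83 small RNA genes, and its far end runs antisense to UBE3A, which it silences on the paternal copy in neurons. The DMSO samples held 4832, 4835 and 4737 adjusted reads and the pladienolide B samples 3025, 3069 and 3229.9. The treated level was 64.7% of the control level with a wide gap between the groups (log2 fold change -0.63 ± 0.04, limma adjusted p = 4.2e-09). The genes that share its strand and interval were lower as well. SNURF and SNRPN, whose reading frames lie in one transcript at the start of the locus, changed by -0.57 and -0.54 on the log2 scale (limma adjusted p = 1.1e-07 and 1.5e-07). The non-coding RNAs PWAR6, PWARSN and IPW changed by -1.11, -0.92 and -0.41 (limma adjusted p = 8.8e-07, 0.0022 and 0.0016), whereas PWAR5, at -0.31, did not pass (limma adjusted p = 0.094). PWAR1 and PWAR4 were too low to test, with means of at most 1.39 adjusted reads. UBE3A, on the opposite strand, rose from a mean of 2584 to 3022, a log2 fold change of 0.23 ± 0.04 (limma adjusted p = 0.00039). How reads in the shared interval were divided among SNHG14, SNRPN and SNURF is not given in the sources used here, so these values cannot be taken as separate measurements. In GENCODE, exons of other genes on the same strand cover 0.0% of the canonical exon bases of SNHG14, and its other transcripts were not examined.

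SNHG26 (chr7:22854240-22861436), host of SNORD93, had the largest fall in size but the fewest reads of the called members. Its values were 49.8, 62.5 and 50.0 in DMSO and 24.1, 24.7 and 38.1 with pladienolide B, which left 53.5% of the control level and no overlap (log2 fold change -0.90 ± 0.24, limma adjusted p = 0.0053). SNHG18 (chr5:9546200-9550298), host of SNORD123, fell from 242, 232 and 252 to 156, 154 and 171, and the ranges stayed far apart (log2 fold change -0.59 ± 0.11, limma adjusted p = 0.00023). SNHG32 (chr6:31834916-31839761) is the host of SNORD48 and SNORD52 in the major histocompatibility region. Its DMSO samples were nearly identical at 2218, 2211 and 2211, and its treated samples were 1584, 1552 and 1634. That drop to 71.9% of the DMSO level had a log2 fold change of -0.48 ± 0.05 (limma adjusted p = 3.1e-07).

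DANCR (chr4:52712394-52720697), named for holding back differentiation and the host of SNORA26, was at 471, 536 and 489 in DMSO and at 429, 369.6 and 359 with pladienolide B. All treated samples lay below the controls, and the log2 fold change was -0.37 ± 0.09 (limma adjusted p = 0.0019). SNHG3 (chr1:28505943-28510892) hosts SNORA73A and SNORA73B, the U17 RNAs, which act in cutting the ribosomal RNA precursor rather than in modifying it. It fell from 1005, 1114 and 1028 to 742, 921 and 871, a log2 fold change of -0.32 ± 0.07 (limma adjusted p = 0.0021). RCC1, which shares the strand and part of the interval of SNHG3 and encodes the nucleotide exchange factor of Ran, had means of 3859 and 3639 and did not pass (log2 fold change -0.08, limma adjusted p = 0.13). SNHG29, host of SNORD49A, SNORD49B and SNORD65, had 4531 to 4834 adjusted reads in DMSO and 3693 to 3899 with the drug (log2 fold change -0.29, limma adjusted p = 4.3e-05). LRRC75A, which overlaps SNHG29 on the opposite strand, fell as well, from a mean of 1320 to 1037 (log2 fold change -0.35, limma adjusted p = 0.00019). SNHG5, host of SNORD50A and SNORD50B, had 3757 to 4284 in DMSO and 3166 to 3490 with the drug (log2 fold change -0.25, limma adjusted p = 0.0010). SNHG8, host of SNORA24, had 417 to 465 and 366 to 405, a log2 fold change of -0.20 that only just passed (limma adjusted p = 0.047) and was lost without DMSO replicate 1 or 2 or pladienolide B replicate 1 or 2, with values from -0.20 to -0.17.

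The 10 tested members that did not pass were SNHG4, SNHG6, SNHG7, SNHG9, SNHG11, SNHG19, SNHG20, SNHG21, SNHG28 and SNHG30. SNHG6, host of SNORD87, is the most abundant of them, with 1468 to 1636 adjusted reads in DMSO and 1483 to 1531 with pladienolide B. Its 95% interval, from -0.13 to 0.09 on the log2 scale, was the narrowest of the 10. SNHG7, host of SNORA17A and SNORA17B, had 1121 to 1364 and 1079.8 to 1209 (log2 fold change -0.15, limma adjusted p = 0.093). Its DMSO replicate 2 was the lowest control, and without that sample the log2 fold change was -0.24 with an adjusted p of 0.0013. SNHG11 (163 to 185 against 192 to 211) and SNHG30 (109.9 to 117 against 85.2 to 101) had groups that did not overlap but missed the threshold, with log2 fold changes of 0.21 and -0.32 (limma adjusted p = 0.12 and 0.075). SNHG4, SNHG19 and SNHG20 lay between 83.2 and 187 adjusted reads in the 6 samples and had overlapping groups, with log2 fold changes of 0.12, -0.11 and 0.14. SNHG9, SNHG21 and SNHG28 had at most 37.1 adjusted reads in any sample, and their intervals were wide, from -1.55 to 0.11 for SNHG9, from -0.40 to 0.81 for SNHG21 and from -1.09 to 0.82 for SNHG28. Overlapping genes of these members were MATR3 with SNHG4 (log2 fold change -0.24), MCMDC2 with SNHG6 (-0.42), DIPK1B with SNHG7 (0.15), SEC14L1 with SNHG20 (0.23), FSD2 with SNHG21 (-0.34), and SLAMF8, LOC107985216 and VSIG8 with SNHG28 (-1.01, -0.28 and too low to test). Of these, MATR3, MCMDC2 and SEC14L1 passed the test (limma adjusted p = 0.00037, 0.033 and 0.00019).

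The 4 members that were too low to test had almost no reads. SNHG22, SNHG25 and SNHG27 had at most 2 reads in any sample. SNHG31 had 11, 15 and 6 reads in DMSO and 7, 1 and 3 with pladienolide B, and its groups overlapped. At this depth no difference could be detected for these 4. The genes opposite SNHG22 and SNHG31, MYO5B and ABCA12, had means of 133 and 1.94 adjusted reads in DMSO and 113 and 5.17 with the drug, and MYO5B did not pass (limma adjusted p = 0.20) while ABCA12 was too low to test.

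Adjusted reads are not corrected for transcript length, so levels of the members are also given per length. Per kilobase of the GENCODE canonical transcript, the mean DMSO level of the tested members ran from 5.42 adjusted reads for SNHG28 to 10458 for SNHG29, with SNHG16 at 4999, SNHG5 at 2998, GAS5 at 2304 and SNHG1 at 1973. These levels rest on 1 transcript a gene, while reads were counted over the gene. For some members the canonical transcript is longer than the deposited interval, among them SNHG8 with 6166 bases (chr4:118278762-118279823) and EPB41L4A-AS1 with 3511 (chr5:112160526-112162501). For such members the level per kilobase, the length and the covered shares given below include bases outside that interval. Across the 28 members, the log2 fold change had a Spearman rho of 0.08 with the number of exons, 0.08 with the transcript length, 0.01 with the DMSO level per kilobase and 0.14 with the number of nested small RNAs, given as a description over genes of the same 6 libraries. Among the called members, the largest overlaps in GENCODE are as follows. Exons of other genes on the same strand cover 60.7% of the canonical exon bases of SNHG5 and 39.7% of those of SNHG32. Exons on the opposite strand cover 62.7% of the canonical exon bases of EPB41L4A-AS1, 61.4% of ZFAS1, 40.3% of SNHG8 and 27.2% of DANCR. In tested members that were not called, the same-strand share reached 94.1% (SNHG28) and the opposite-strand share 81.7% (SNHG6). Whether reads were assigned by strand is not given in the sources used here, and without strand the reads of a member and of its antisense partner cannot be told apart. Without the 12 tested members that overlap another gene in the deposited table, 6 of 16 members rose and 6 fell, beside 22.4% and 25.2% of all genes.

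The reads of the members were also summed. Their summed adjusted read count was 32245, 33170.3 and 32157 in DMSO and 30667, 30023 and 30123 with pladienolide B, so all treated samples lay below all controls, at 0.931 of the DMSO mean. Much of this fall rests on SNHG14, whose mean went from 4802 to 3108 while that of the sum went from 32524 to 30271. SNHG14 is not measured apart from SNRPN and SNURF, so the sum does not show a loss shared by the members. As a share of the reads on genes, the sum was 0.131% to 0.132% in DMSO and 0.124% to 0.126% with the drug. The 9 risers went from 11096 ± 8.10 to 13244 ± 346 (SD, n = 3) and the 9 fallers from 17881 ± 600.1 to 13620.3 ± 155 (SD, n = 3), groups that were formed by their change and so carry no test.

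The members were also grouped by the small RNAs inside them, to be read beside the 22.4% of all genes that rose and the 25.2% that fell. Of 12 tested hosts of box C/D RNAs alone, 6 fell and 3 rose, with a median log2 fold change of -0.27. These fallers were SNHG26, SNHG14, SNHG18, SNHG32, SNHG29 and SNHG5, and the risers SNHG1, SNHG16 and ZFAS1. Of 10 hosts of box H/ACA RNAs alone, 3 fell (DANCR, SNHG3 and SNHG8) and 3 rose (EPB41L4A-AS1, SNHG15 and SNHG17), with a median of -0.02. Of 3 hosts of a Cajal body RNA, SNHG10 rose while SNHG20 and SNHG21 did not pass, and both hosts of box C/D with box H/ACA RNAs, GAS5 and SNHG12, rose. Over all 14 tested hosts of a box C/D RNA, 6 fell and 5 rose. The difference between these classes was not tested.

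**Figure D2:**
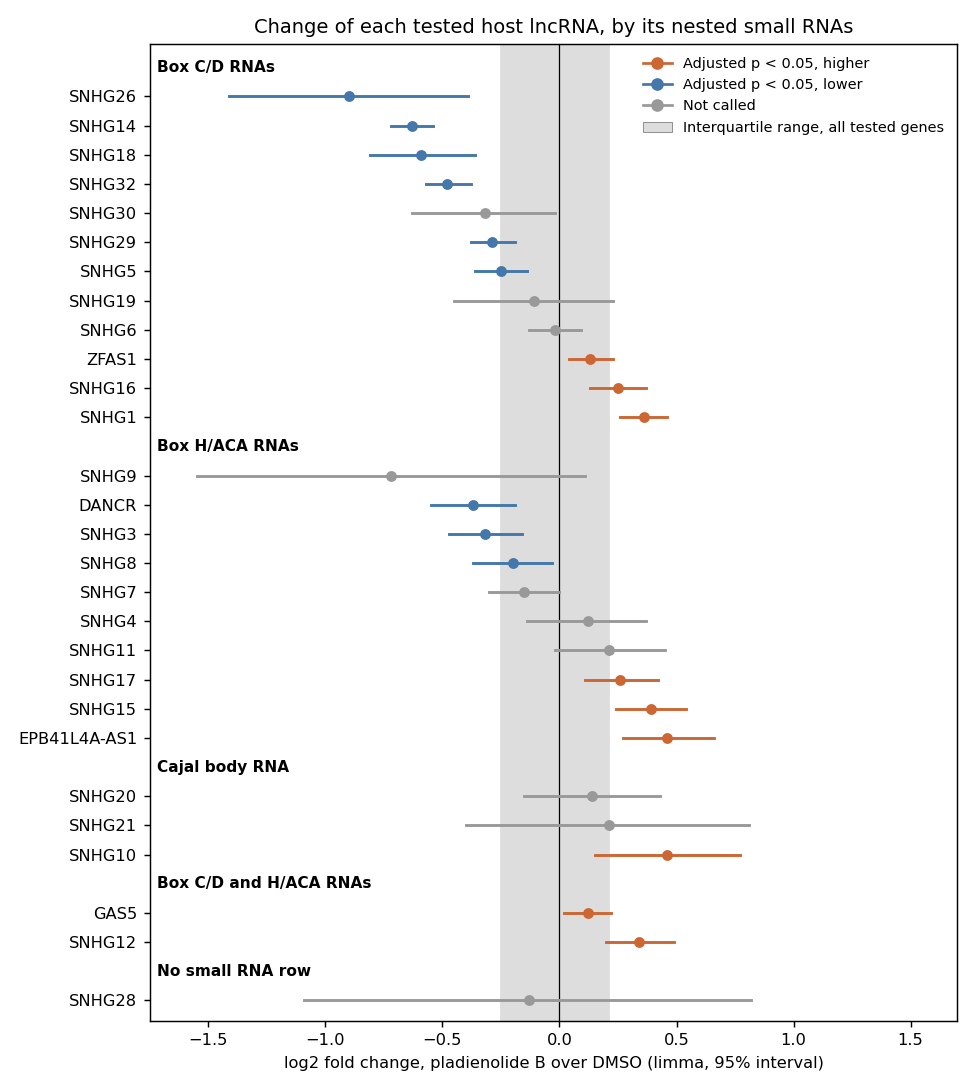
log2 fold change of each tested host lncRNA, pladienolide B over DMSO, with its 95% interval from limma, grouped by the small RNAs that lie inside the gene. Orange and blue mark members that rose or fell at an adjusted p below 0.05, and the grey band holds the middle 50% of all genes tested, from -0.25 to 0.21. The box C/D hosts spread from -0.90 for SNHG26 to 0.36 for SNHG1.

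The deposited table also lists the small RNAs themselves, 147 of them inside members, and these were looked at beside their hosts. Reads on them were few: 55 had none in any sample, 130 had a mean under 10, and 18 could be tested. Such reads may come from the small RNA, from its precursor or from an intron kept in the host, which these counts cannot tell apart. The summed count of the 147 was 682 ± 45.3 in DMSO and 708 ± 62.5 with pladienolide B (SD, n = 3), and the groups overlapped. SNORD31 in SNHG1, with the most reads, had 81.8, 89.7 and 90.8 in DMSO and 61.7, 76.7 and 76.2 with the drug. Its groups did not overlap, and its log2 fold change of -0.29 ± 0.16 did not pass (limma adjusted p = 0.16), beside a rise of 0.36 in its host. SNORA73A and SNORA73B in SNHG3 came next, with means of 75.5 and 65.4 in DMSO and 71.2 and 60.7 with the drug, and did not pass (limma adjusted p = 0.71 and 0.79).

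Of the 18 tested small RNAs, 4 rose and 0 fell, beside 22.4% of all genes that rose and 25.2% that fell. These 4 are named although they were chosen after their values were seen. On their DMSO samples alone, none of the 4 would have met the filter of 10 in 3 samples. They met it with pladienolide B, where they were high. SNORD116-20 in SNHG14 had 11.3, 10.1 and 11.3 in DMSO and 2.09, 3.18 and 2.0 with the drug, and missed the filter. The absence of called falls therefore depends on the filter too. SCARNA16 in SNHG20 had 6.66, 2.02 and 3.77 adjusted reads in DMSO and 18.7, 11.9 and 22.0 with pladienolide B, a log2 fold change of 1.91 ± 0.48 (limma adjusted p = 0.0032), beside 0.14 in SNHG20. SEC14L1 overlaps SNHG20 on the same strand and also holds a small RNA inside its interval. It had far more reads, with means of 7729.8 and 9079 (log2 fold change 0.23, limma adjusted p = 0.00019). Whether the SCARNA16 reads came from SNHG20 or SEC14L1 transcripts was not tested. SCARNA13 in SNHG10 had 6.62, 3.03 and 6.64 against 16.7, 19.1 and 14.0, a log2 fold change of 1.50 ± 0.43 (limma adjusted p = 0.0083), beside 0.46 in its host. In both scaRNAs every treated sample lay above every control. SNORD50B rose from 8.39, 13.1 and 12.3 to 22.9, 21.4 and 24.1 (log2 fold change 0.98 ± 0.33, limma adjusted p = 0.022), while its host SNHG5 fell by 0.25. SNORA71C in SNHG17 rose from 12.3, 7.07 and 15.2 to 26.0, 18.3 and 23.0 (log2 fold change 0.95 ± 0.36, limma adjusted p = 0.037), beside a rise of 0.26 in SNHG17. SNORA71C has close copies in the same host, among them SNORA71B with a log2 fold change of -0.36, so its reads could be divided among them in counting. All 4 rest on fewer than 30 adjusted reads a sample, and whether each differed from its host was not tested.

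The 4 small RNAs that rose and SNORD31 are printed here because they are what the introns of these hosts release. The letters were read from hg38 at the deposited positions, 5' to 3' on the transcript strand. Capitals mark, in the box C/D RNAs, the first TGATGA (box C) and the last CTGA (box D), and in the others the ACA box that 3 bases follow at the end.
SNORD31: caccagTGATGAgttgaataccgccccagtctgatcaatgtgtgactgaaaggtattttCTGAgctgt
SNORD50B: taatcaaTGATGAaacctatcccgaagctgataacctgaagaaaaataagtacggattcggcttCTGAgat
SNORA71C: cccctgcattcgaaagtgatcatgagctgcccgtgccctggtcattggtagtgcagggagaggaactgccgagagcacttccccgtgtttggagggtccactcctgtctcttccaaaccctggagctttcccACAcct
SCARNA13: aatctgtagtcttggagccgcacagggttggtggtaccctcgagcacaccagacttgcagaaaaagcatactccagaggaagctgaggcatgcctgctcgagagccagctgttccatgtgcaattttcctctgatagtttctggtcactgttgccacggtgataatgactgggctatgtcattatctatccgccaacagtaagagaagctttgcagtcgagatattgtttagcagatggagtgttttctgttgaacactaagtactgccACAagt
SCARNA16: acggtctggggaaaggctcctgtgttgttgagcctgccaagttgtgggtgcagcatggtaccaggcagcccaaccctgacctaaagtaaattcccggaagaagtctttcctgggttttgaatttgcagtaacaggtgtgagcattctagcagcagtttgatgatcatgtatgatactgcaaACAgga
They lie at chr11:62853326-62853393 (minus strand), chr6:85677589-85677659 (minus), chr20:38429667-38429804 (minus), chr14:95533355-95533629 (minus) and chr17:77089307-77089493 (plus). A TGATGA with a CTGA after it was found in 70.9% of 357 box C/D RNA genes of the table, and the ACA with 3 bases after it in 81.5% of 211 box H/ACA and Cajal body RNA genes, on the transcript strand.

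**Figure D3:**
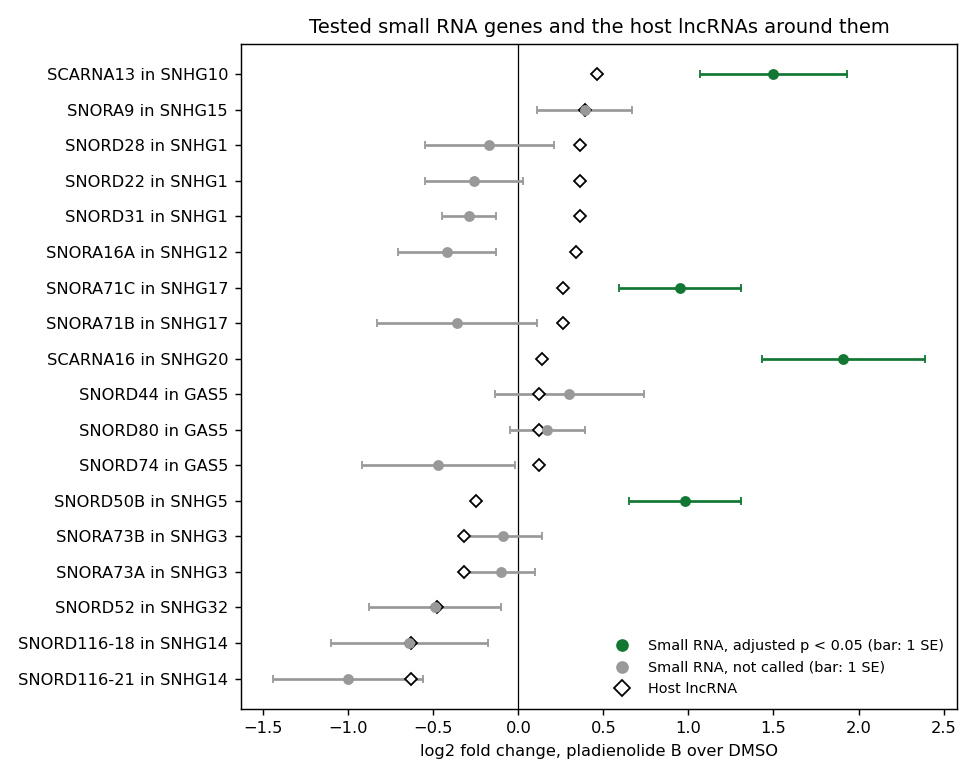
log2 fold change, pladienolide B over DMSO, of the 18 small RNA genes with enough reads to test (circles, bars of 1 SE, green where the adjusted p was below 0.05) and of the host lncRNA around each (open diamonds). SCARNA16, SCARNA13, SNORD50B and SNORA71C lie to the right of their hosts, and the 3 small RNAs of SNHG1 lie to the left of theirs.

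The other genes of snoRNA production and turnover gave a background for the members. The deposited table holds 246 further genes with a small RNA inside their interval and on their strand, most of them coding for proteins. Of 233 tested, 59 rose and 75 fell (57.5% called, beside 47.6% of all genes), with a median log2 fold change of -0.05. The largest falls with an adjusted p below 0.05 were in ATP2B4, a calcium pump of the plasma membrane (mean 3579 to 1437, log2 fold change -1.32), and CCDC153 (24.4 to 10.4, -1.21), and the largest rises in MAGED4B (7.40 to 17.6, 1.14) and SLC47A1, a transporter of organic cations (18.9 to 34.5, 0.90). MAGED4B met the filter on low values only with its pladienolide B samples, and CCDC153 would not have met it without its DMSO samples. Each was thus admitted by the group where it was high. Among all 1845 lncRNA genes tested, 27.2% were called, and among 211 long intergenic RNA genes (LINC symbols) 27.5%, beside 64.3% of the host lncRNAs. The difference in those shares was not tested, and the share called also depends on read depth, which was not matched. The median size of the log2 fold change was 0.34 in both lists, beside 0.27 in the host lncRNAs. Called changes of at least 2-fold were found in 174 of all lncRNA genes, 25 of the LINC genes and 0 of the host lncRNAs.

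Proteins of the snoRNP, the particle that holds a snoRNA, were listed together with factors that assemble or process it. Of these 21, 12 rose (57.1%, beside 22.4% of all genes) and 3 fell (14.3%, beside 25.2%), with a median log2 fold change of 0.21. These shares do not describe the proteins of the particle alone. The list itself was not tested. The largest rises were in TGS1, which hypermethylates the cap of small nuclear and nucleolar RNAs (mean 1162 to 1772, log2 fold change 0.61), and NOLC1, a nucleolar phosphoprotein that binds snoRNPs (7658 to 10304, 0.43). The largest falls were in PIH1D1 (1342 to 653, log2 fold change -1.04) and RUVBL2 (3459 to 2556, -0.44), both of the R2TP complex that assembles box C/D particles. Cytosolic ribosomal protein genes, many of which have a TOP-like start (49 of 86) or host snoRNAs, were called mainly in 1 direction: 1 of 84 rose (RPL7L1, a paralogue of RPL7, log2 fold change 0.19) and 48 fell (57.1%, beside 25.2% of all genes), with a median of -0.13 and no test of the list. The largest falls there were in the paralogues RPL22L1 (528 to 328, log2 fold change -0.67) and RPL39L (225 to 169, -0.40).

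Nonsense-mediated decay, which removes several spliced host RNAs, was described by its factors and by mRNAs known as its targets. Of 20 factors, 7 rose (35.0%, beside 22.4% of all genes) and 5 fell (beside 25.2% of all genes), with a median log2 fold change of 0.02. SMG8, a regulator of the SMG1 kinase, rose (mean 1274 to 1592, log2 fold change 0.32), and the largest falls were in NBAS (-0.60) and the endonuclease SMG6 (-0.37). Of 10 target mRNAs, 5 rose and 4 fell, beside the same shares of all genes, with a median of 0.19. The largest rises were in CDKN1A, the p21 inhibitor of cyclin-dependent kinases (mean 899 to 2002, log2 fold change 1.16), and MAP3K14 (614 to 950, 0.63), and the largest falls in CARS1 (2239 to 1312, -0.76) and GADD45B (1260 to 945, -0.42).

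**Figure D4:**
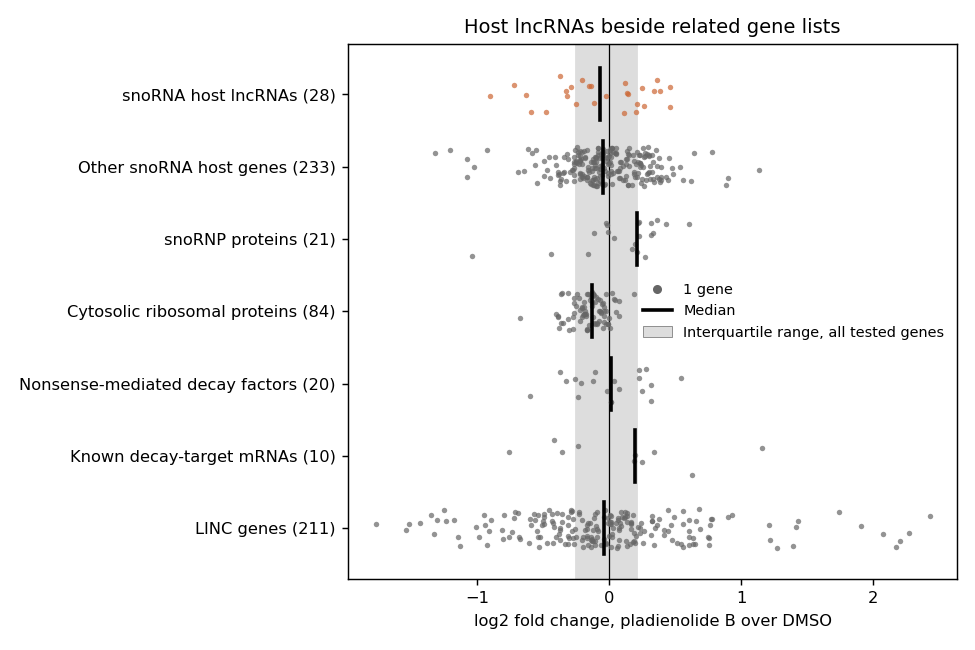
log2 fold change, pladienolide B over DMSO, of every tested gene in 7 lists (1 dot a gene, number tested in brackets), with black bars at the medians. The grey band is the middle 50% of all genes tested. The snoRNA host lncRNAs (orange) spread from -0.90 to 0.46 around a median of -0.07. The ribosomal proteins lie mostly below 0, and the snoRNP list, which includes assembly factors, mostly above.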

How the data were processed

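RNA sequencing of 6 OVCAR8 samples was analysed from 1 deposited table. The methods name trimming, hisat2 and hg38, while the submitters' processing notes list HISAT2, HTSeq 0.12.4, DESeq2 and hg19. The positions in the table are those of GRCh38: 99.97% of the 26990 symbols shared with GENCODE 44 overlapped. Per sample, the authors deposited a signal, the read count of each gene adjusted for library size (edgeR's quantile-adjusted counts, common dispersion 0.0027). Inverting the adjustment gave whole reads, within 0.05, for at least 99.994% of values of 10 or more. Further columns that the authors deposited hold, per gene, the log2 fold change, p-value and q-value of their own comparison, and these were not used.

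The adjusted counts were tested as log2(value + 1) with limma 3.58.1 (variance trend, two-sided), for genes kept by filterByExpr of edgeR 4.0.16 (minimum 10 in 3 samples, 15 in total), with Benjamini-Hochberg adjustment over 16178 genes and a threshold of 0.05. Fold changes are on this scale, which understates those of genes with few reads. The design had foreseen this test for normalized values. Alternatives were edgeR's quasi-likelihood test and DESeq2 1.42.0 on the recovered reads, other scalings, no filter, a pseudocount of 0.1, no variance trend, the replicate number as a block, and leaving out each sample. Leaving out each sample for the summed level was added after the data were seen. The fits were tested on simulated data. Small RNAs were assigned to members by position and strand in the table. Each member is named, with values in every sample for the 6 largest rises and 6 largest falls called, GAS5, DANCR, ZFAS1, EPB41L4A-AS1 and SNHG1. Of other lists at most 2 rises and 2 falls are named, and of small RNAs the 3 with most reads. A gene that this rule names is not reported here. The members and lists were chosen with earlier results of these data known. Promoter sequences (RefSeq, GRCh38.p14) matched 28 of the 32 members.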

Additional observations from a re-analysis of the deposited data

How the results depend on the processing

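Over 28 tested members and 14 alternatives each, 356 of 392 values kept their direction and their side of the threshold, 27 lost the call, 4 gained it and 5 changed sign. Of the 18 calls, 13 held in every alternative; the exceptions were SNHG10, ZFAS1, GAS5 and SNHG8, described above, and SNHG16, lost without the variance trend (adjusted p = 0.052). GAS5 and SNHG8 were also lost with DESeq2 (adjusted p = 0.052 and 0.11, with ranges over all alternatives of 0.017 to 0.17 and 0.040 to 0.16), and SNHG8 with edgeR (0.056). In all, SNHG8 lost its call in 11 of the 14 alternatives and GAS5 in 9 of the 14, so neither call is firm. The sign changed only in members that had not passed: SNHG6 with upper-quartile scaling (0.00) and without DMSO replicate 2, SNHG28 without DMSO replicate 1 (0.13) or pladienolide B replicate 2, and SNHG21 without pladienolide B replicate 2. Leaving out 1 sample gave -0.05 to 0.03 for SNHG6, -0.42 to 0.27 for SNHG28 and -0.01 to 0.39 for SNHG21. The cause of these changes was not tested.

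The number of members called was 17 with edgeR and 16 with DESeq2, beside 47.8% and 43.2% of all genes. It was 14 to 18 when 1 sample was left out, beside 40.6% to 48.4% of all genes. The median log2 fold change moved to -0.12 without the filter, which admits the 4 low members, and to -0.16 without members that overlap another gene, and ranged from -0.08 to 0.02 when 1 sample was left out, so it has no firm sign. The summed level was 0.954 of DMSO as a share of recovered reads, and 0.925 to 0.940 when 1 sample was left out. Same-numbered samples did not deviate together (correlations -0.0183, -0.0175 and 0.00261), so the numbers were not taken as pairs. With the replicate block, 17 members were called (8 higher, 9 lower) and 7349 genes, beside 7695 without it: GAS5 and SNHG8 were lost (adjusted p = 0.078 and 0.068) and SNHG7 was gained (-0.15, adjusted p = 0.050). Scaling moved the median of all genes by at most 0.02. With few reads, SNHG9, SNHG21 and SNHG28 are the least certain.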
